A study of Mus musculus with 24 samples.

Results

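Endothelial cells sorted from the tibialis anterior muscle of mice 4 days after cardiotoxin injury were compared with endothelial cells sorted from uninjured muscle (day 0). The comparison rests on 6 of the 24 arrays of the series, 3 per group, chosen by sample title. Cardiotoxin is a snake venom toxin that lyses muscle fibres. The endothelial gate took CD31+, CD34+ and Sca1+ cells that lacked CD45, and the arrays measured RNA amplified from 750 pg per sample. The other 18 arrays hold endothelial cells of days 2 and 8, and satellite cells, the stem cells of muscle, of days 0, 2, 4 and 8 (gated as CD31-, Sca1- and CD45- cells with alpha7-integrin and some CD34). The labels call the 3 samples of a group biological replicates and give no strain, age, sex or number of animals per sort, so the p-values below measure the spread between samples. That spread was estimated within groups over all 24 arrays, satellite cells included.

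Skeletal muscle fibres are fed by a dense net of capillaries, whose endothelium passes fatty acids and oxygen to the fibres. Post-capillary venules are the part of the bed where leukocytes leave the blood, and their endothelium displays selectins and other adhesion molecules when inflamed. New vessels grow by sprouting, led by tip cells under VEGF and held in check by the Notch ligand Dll4, and by division of the endothelial cells behind them.

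The labels of these arrays were not uniform. The separate cell type field differed from the title on all 3 day 4 arrays and on 0 of 3 day 0 arrays, and the time point field differed on 3 and 2 arrays of these groups. Genes that define endothelium were used to check the titles. Pecam1, which encodes the sort marker CD31, measured 11.41, 11.70 and 11.58 on the day 4 arrays and 11.41, 11.36 and 11.52 on the day 0 arrays (log2 RMA values, the authors' normalized scale, in which array medians lie between 4.16 and 4.22 on these 6 arrays). Cdh5, which encodes VE-cadherin of the endothelial junction, measured 11.70, 11.93 and 11.78 on day 4 and 11.77, 11.82 and 11.69 on day 0. Both genes were high on all 6 arrays and the groups overlapped. They speak to the cell type of the samples and not to their day. Array numbers rose with the day, and the part of either in a difference cannot be told apart.

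Across 30 endothelial identity genes, 1 was higher and 2 lower on day 4, with a median log2 difference of -0.05. A gene was called where its limma p, adjusted by Benjamini and Hochberg, was under 0.05 and its log2 difference was 1 or more in size, and 3.11% of the 14064 genes tested were called higher and 2.22% lower. Plvap, which forms the diaphragms of endothelial fenestrae and caveolae, rose to 9.28, 9.88 and 10.18 on day 4, against 7.62, 8.27 and 7.83 on day 0 (log2 difference 1.87, SE 0.47, adjusted p = 0.0177). All day 4 arrays lay above all day 0 arrays, but the adjusted p of Plvap reached 0.0607 without day 4 replicate 2, 0.0774 without day 4 replicate 3, 0.0771 without day 0 replicate 1 and 0.055 without day 0 replicate 3. Gata2, a transcription factor of endothelial and blood cells, fell by 2.39 (SE 0.30, adjusted p = 2.63e-05), 5.24-fold, with 5.95, 6.15 and 5.61 on day 4 against 8.50, 8.56 and 7.82 on day 0. Flt1, a VEGF receptor that also acts as a decoy, fell by 1.20 (SE 0.32, adjusted p = 0.0243). The falls numbered 1 without day 4 replicates 1 or 3 or any 1 of the day 0 replicates, and without both day 4 replicate 1 and day 0 replicate 3 there were 0 rises and 1 fall. The other identity genes were not called, among them Kdr, the main signalling VEGF receptor (-0.92, SE 0.35, adjusted p = 0.131), and Tek, the angiopoietin receptor (-0.32, SE 0.45, adjusted p = 0.811).

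A pair of arrays stood apart in gene groups named below. Day 4 replicate 1 had the highest leukocyte markers, with a mean level over the list of 7.29 against 6.20 and 5.51 on day 4 replicates 2 and 3. Day 0 replicate 3 had the highest interferon response genes, with a mean level over the list of 8.79 against 7.06 and 7.11 on day 0 replicates 1 and 2. Counts without both of these arrays are given beside the lists where they differ by over 1.5 times.

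In all, 438 genes rose and 312 fell on day 4. The median log2 difference over all tested genes was -0.02, the value beside which the medians of gene lists are to be read. Of the 438 that rose, 437 had all day 4 arrays above all day 0 arrays, and 307 of the 312 that fell had all day 4 arrays below. Over all genes tested, 13.3% and 13.9% had arrays that did not overlap in these directions, called or not. A log2 difference of at least 2 was seen for 166 genes that rose and 61 that fell, and of at least 3 for 45 and 18. Without both arrays that stood apart, 260 genes rose and 184 fell, 224 and 152 of them among those called with all arrays.

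The 12 largest rises combined genes of inflammation, of white blood cells, of division and of matrix. They were AA467197 (5.90), Ctss, a lysosomal protease of antigen presentation (5.84), Tyrobp, a signalling adaptor of myeloid cells (5.46), the chemokine Cxcl2 (5.15), the macrophage gene Ms4a7 (5.12), Laptm5, a lysosomal protein of leukocytes (4.76), and the cytokine Il6 (4.73). The others were the chemokine Ccl2 (4.67), Top2a, the DNA topoisomerase of dividing cells (4.40), the inhibitory leukocyte receptor Lilrb4a (4.35), the matrix protein Tgfbi (4.22) and Wfdc17 (4.13). The day 0 means of these 12 genes lay less than 1 above the mean of the array medians, so no folds are given for them. AA467197 measured 9.57, 9.49 and 9.66 on day 4 against 3.95, 2.87 and 4.19 on day 0 (SE 0.39, adjusted p = 6.47e-09). Its day 4 arrays differed little from each other, unlike those of Tyrobp, which measured 10.00, 8.85 and 8.32 on day 4 against 3.84, 3.07 and 3.90 on day 0.

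The 12 largest falls included a small nucleolar RNA, capillary genes and genes of the cells that wrap capillaries. Snord35b, a box C/D small nucleolar RNA that guides RNA methylation, fell by 5.03 (SE 0.70, adjusted p = 9.53e-05), with 3.96, 5.11 and 4.60 on day 4 against 9.77, 9.32 and 9.69 on day 0. Cdh23, a cadherin best known from hair cells of the inner ear, fell by 3.90 (SE 0.22, adjusted p = 4.86e-10), with 3.58, 3.83 and 3.77 on day 4 against 7.49, 8.00 and 7.39 on day 0. Both were near the array medians on day 4 and well above them on day 0. The others were Timp4 (-4.45), the metalloreductase Steap4 (-3.56), the adhesive glycoprotein Vtn (-3.52), the sodium pump subunit Atp1b2 (-3.42), Btnl9 (-3.42), Gucy1a2, a subunit of the nitric oxide receptor guanylate cyclase (-3.39), the pericyte gene Rgs5 (-3.24), Plxdc1 (-3.21), Gm12002 (-3.13) and Bmp6 (-3.12). Of 87 small nucleolar RNAs tested, a family chosen after the values were seen, 4 rose and 2 fell.

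**Figure D1:**
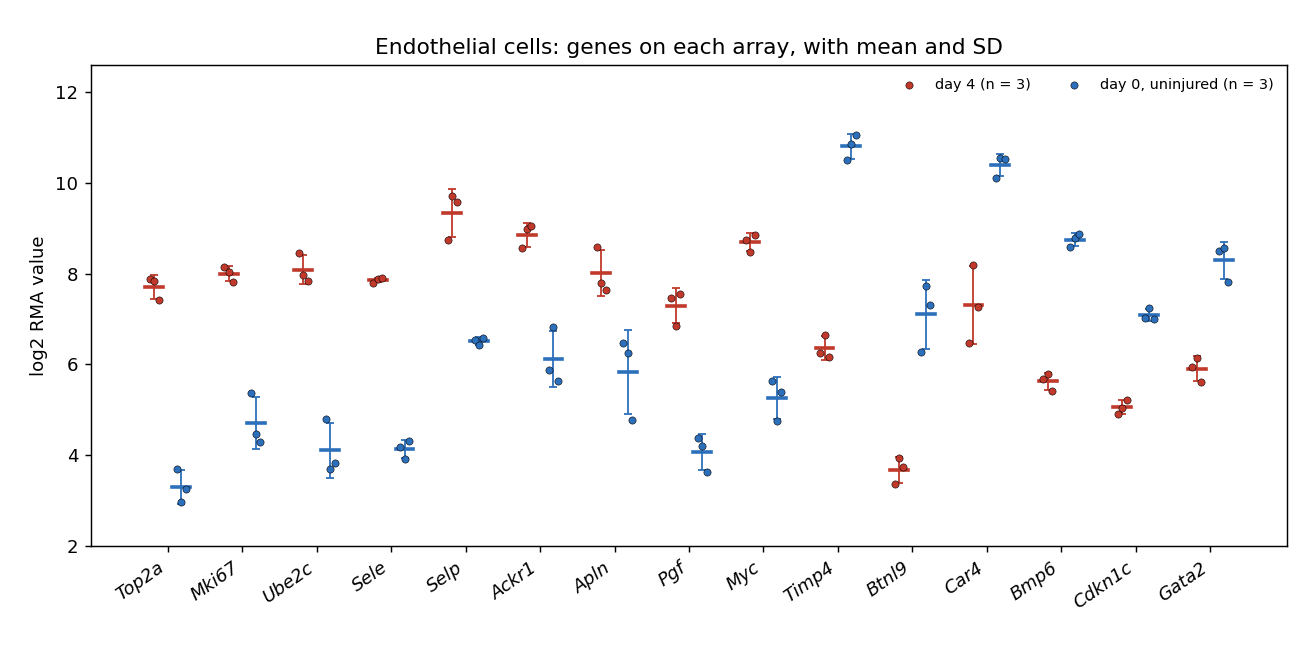
Log2 RMA values of 15 genes on each of the 6 endothelial arrays, day 4 (red) left of day 0 (blue) for each gene. Points are arrays, horizontal bars are means and whiskers are SDs (n = 3 each); for each gene shown the 3 day 4 arrays lie on one side of the 3 day 0 arrays.

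Division genes made up the group with the largest share of called members among the pathways examined. The lists were chosen with earlier results of these data known, so this ranking is a description and not a test. Of 43 mitosis and G2/M genes tested, 36 rose and 0 fell, with a median of 2.09. Mki67, the proliferation marker, measured 8.16, 8.03 and 7.82 on day 4 and 5.37, 4.48 and 4.30 on day 0 (3.28, SE 0.33, adjusted p = 2.2e-06). Top2a measured 7.88, 7.83 and 7.41 on day 4 and 3.70, 2.96 and 3.25 on day 0 (4.40, SE 0.31, adjusted p = 1.67e-08). Ube2c, which hands ubiquitin to the complex that ends mitosis, measured 8.46, 7.97 and 7.85 on day 4 and 4.80, 3.70 and 3.82 on day 0 (3.98, SE 0.38, adjusted p = 1.79e-06). In each of these genes the groups were apart by more than 2 on the log2 scale. Cdk1, the kinase that starts mitosis (3.32, SE 0.49), and its partner cyclin Ccna2 (3.30, SE 0.32) rose as well. The mean level over the list was 6.44, 6.23 and 5.88 on the day 4 arrays and 4.13, 4.05 and 4.10 on the day 0 arrays. Its order on day 4 was that of the leukocyte markers (7.29, 6.20 and 5.51 on the same arrays), whose part in the level was not tested.

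A smaller number of DNA replication and G1/S genes passed the thresholds. Of 39 tested, 5 rose and 0 fell, with a median of 0.53. They were Rrm2, a subunit of ribonucleotide reductase (1.97, SE 0.29, adjusted p = 0.000146), the replication helicase parts Gins2 (1.90, SE 0.42, adjusted p = 0.00683) and Mcm3 (1.16, SE 0.34, adjusted p = 0.0467), Uhrf1, which maintains DNA methylation (1.51, SE 0.41, adjusted p = 0.0287), and the repressor E2f8 (1.09, SE 0.32, adjusted p = 0.0434). The count was 1 without day 4 replicate 1, 3 without day 4 replicate 2, 2 without day 0 replicate 2, 3 without day 0 replicate 3 and 1 without both arrays that stood apart. On all 3 day 4 arrays the mean level of the list, 5.94, 5.55 and 5.44, lay above that of the day 0 arrays, 4.99, 5.08 and 5.02.

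Among 18 inhibitors of the cell cycle, 2 fell and 0 rose. Cdkn1c, an imprinted gene that encodes the cyclin-dependent kinase inhibitor p57, fell by 2.04 (SE 0.26, adjusted p = 3.53e-05). Cdkn1c measured 4.92, 5.04 and 5.22 on day 4 against 7.03, 7.25 and 7.01 on day 0, and spread little within either group. Gas6, a ligand of the Axl receptor named for its rise in growth arrest, fell by 1.03 (SE 0.24, adjusted p = 0.00947). This count was 1 without day 4 replicate 2, without day 0 replicate 2 and without both arrays that stood apart.

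Promoters of the division genes are shown because the mitosis genes moved together and members of both division lists are known targets of shared promoter elements. The windows run from 250 bases before to 50 bases after the gene start in RefSeq annotation of GRCm38.p6 and were searched on both strands. The CHR core TTTGAA, through which the DREAM complex holds mitotic genes silent in resting cells, was in 77.1% of the 35 mitosis genes that had a window, against 20.2% of all 27025 genes. The CCAAT box, bound by NF-Y, was in 74.3% of the same genes, against 41.1% of all. The E2F core GCGGGAA was in 44.1% of the 34 replication genes with a window, against 5.29% of all. The ISRE core, a motif of interferon response genes, was in 59.1% of the 22 interferon response genes with a window, against 3.99% of all. No gene of that list was called with all arrays, so a high motif share does not depend on a day 4 change of the list. These matches describe letters in the window and show no binding. Top2a (chr11:99024140-99024439, minus strand) is shown with TTTGAA or its reverse complement in capitals at 2 places, the first at position -179. Ube2c (chr2:164769679-164769978, plus strand) is shown with 6 CCAAT boxes in capitals, the first at position -228, of which a forward and a reverse match share letters. Uhrf1 (chr17:56303087-56303386, plus strand) is shown with the reverse complement of GCGGGAA in capitals at position -48. Sequences run 5′ to 3′ along the gene's strand.
Top2a: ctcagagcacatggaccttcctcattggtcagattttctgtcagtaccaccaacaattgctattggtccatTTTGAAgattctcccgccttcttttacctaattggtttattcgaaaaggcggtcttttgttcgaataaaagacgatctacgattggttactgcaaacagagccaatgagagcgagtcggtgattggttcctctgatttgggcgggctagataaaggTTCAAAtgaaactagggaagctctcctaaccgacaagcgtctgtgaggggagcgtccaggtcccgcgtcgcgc
Ube2c: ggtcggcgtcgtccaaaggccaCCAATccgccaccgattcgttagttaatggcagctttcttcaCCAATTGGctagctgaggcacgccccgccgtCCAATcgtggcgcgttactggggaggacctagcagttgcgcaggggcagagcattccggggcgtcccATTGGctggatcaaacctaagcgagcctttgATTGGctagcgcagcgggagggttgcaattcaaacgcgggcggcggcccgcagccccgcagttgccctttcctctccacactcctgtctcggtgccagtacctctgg
Uhrf1: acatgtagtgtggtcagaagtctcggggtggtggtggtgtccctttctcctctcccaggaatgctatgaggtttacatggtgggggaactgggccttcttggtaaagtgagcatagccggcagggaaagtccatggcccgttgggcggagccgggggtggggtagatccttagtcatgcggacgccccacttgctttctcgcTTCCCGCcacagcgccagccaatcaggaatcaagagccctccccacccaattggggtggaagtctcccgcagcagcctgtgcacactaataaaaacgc

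Growth and metabolism lists held 1 call. Myc, a transcription factor that drives growth and ribosome production, rose 10.8-fold, with 8.74, 8.49 and 8.86 on day 4 against 5.64, 4.76 and 5.39 on day 0 (3.43, SE 0.30, adjusted p = 5.7e-07). It was the 1 gene of the 30 on the ribosome biogenesis list to be called, and the median of that list was 0.40; without day 0 replicate 2, 2 members rose. None of 25 oxidative phosphorylation genes (median 0.13), 15 glycolysis genes (median 0.14) or 18 cholesterol synthesis genes (median -0.18) was called in either direction by limma, while 2, 3 and 2 of them had an unadjusted p under 0.05. The glycolysis gene Pkm missed only the minimum size (0.86, SE 0.17, adjusted p = 0.00303). So did Nop58 of the ribosome biogenesis list, chosen for mention after its values were seen (0.93, SE 0.24, adjusted p = 0.0197).

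The genes of muscle capillaries that were called all fell. Of 22 tested, 7 fell and 0 rose, with a median of -1.09. Timp4, a metalloprotease inhibitor, fell 21.8-fold, to 6.25, 6.66 and 6.17 on day 4 against 10.50, 10.86 and 11.05 on day 0 (-4.45, SE 0.54, adjusted p = 2.29e-05). Btnl9, a butyrophilin-like membrane protein, measured 3.37, 3.93 and 3.74 on day 4 and 6.27, 7.72 and 7.32 on day 0 (-3.42, SE 0.36, adjusted p = 4.74e-06). Car4, a carbonic anhydrase on the capillary surface, measured 6.47, 8.18 and 7.27 on day 4 and 10.11, 10.56 and 10.52 on day 0, 8.50-fold lower (-3.09, SE 0.66, adjusted p = 0.0052). No day 4 array reached the lowest day 0 array in any of these genes. Lpl, the lipase that frees fatty acids from lipoproteins, fell 4.70-fold (-2.23, SE 0.37, adjusted p = 0.000602), and Tcf15, a transcription factor of capillary endothelium that handles fatty acids, fell 3.83-fold (-1.94, SE 0.35, adjusted p = 0.00146).

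Other genes of fatty acid uptake in the same cells were not called. Gpihbp1, which holds the lipase on the capillary wall, measured 11.11, 11.28 and 11.23 on day 4 and 11.55, 11.73 and 11.89 on day 0 (-0.52, SE 0.34, adjusted p = 0.467). The fatty acid transporter Cd36 was at -0.48 (SE 0.27, adjusted p = 0.355) and the binding protein Fabp4 at -0.15 (SE 0.27, adjusted p = 0.861). The largest difference among capillary genes not called was that of Rbp7 (-1.53, SE 0.60, adjusted p = 0.145). Of the 22 capillary genes, 19 had a negative difference and 3 a positive one. All day 4 arrays lay below all day 0 arrays in 16 of them, Gpihbp1 included, against 13.9% of all genes tested. Without both arrays that stood apart, 4 capillary genes fell and the adjusted p of Car4 was 0.0943 (-2.61). In fits of the 12 endothelial arrays alone, and of the 6 arrays alone, 11 fell.

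The genes of venular endothelium that were called all rose. Of 13 tested, 7 rose and 0 fell, with a median of 1.60. Sele, or E-selectin, which slows leukocytes on inflamed venules, measured 7.81, 7.88 and 7.91 on day 4 and 4.19, 3.92 and 4.31 on day 0 (3.72, SE 0.46, adjusted p = 2.63e-05). Selp, or P-selectin, measured 8.74, 9.72 and 9.57 on day 4 and 6.53, 6.43 and 6.59 on day 0, 7.09-fold higher (2.83, SE 0.52, adjusted p = 0.0017). Ackr1, the chemokine-binding Duffy receptor of venules, measured 8.56, 8.98 and 9.05 on day 4 and 5.88, 6.82 and 5.65 on day 0, 6.71-fold higher (2.75, SE 0.54, adjusted p = 0.00296). In all of these the lowest day 4 array lay above the highest day 0 array. Day 4 replicate 1 was the lowest day 4 array in each, though the day 4 values of Sele hardly differed. That array also had the highest leukocyte markers, and the part of other cells in these rises was not tested.

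The other venular genes that rose were Lrg1, a secreted modulator of TGF-beta signalling in vessels (2.37, SE 0.36, adjusted p = 0.000235), the integrin ligand Vcam1 (1.78, SE 0.38, adjusted p = 0.00537), the surface enzyme Bst1 (1.66, SE 0.46, adjusted p = 0.0329) and the integrin ligand Icam1 (1.29, SE 0.30, adjusted p = 0.00985). Nr2f2, the transcription factor that sets venous identity, was at 0.22 (adjusted p = 0.797), and the venous receptor Ephb4 at 0.40 (adjusted p = 0.618). Neither was called. Of 13 leukocyte adhesion genes, a list that shares members with the venous one, 6 rose and 1 fell, with a median of 0.14. The member that fell, the junction protein Jam3 (-1.20, SE 0.33, adjusted p = 0.0305), lost its call without each of day 4 replicates 1 and 2 and day 0 replicates 1, 2 and 3, and without both arrays that stood apart, where that count was 0.

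**Figure D2:**
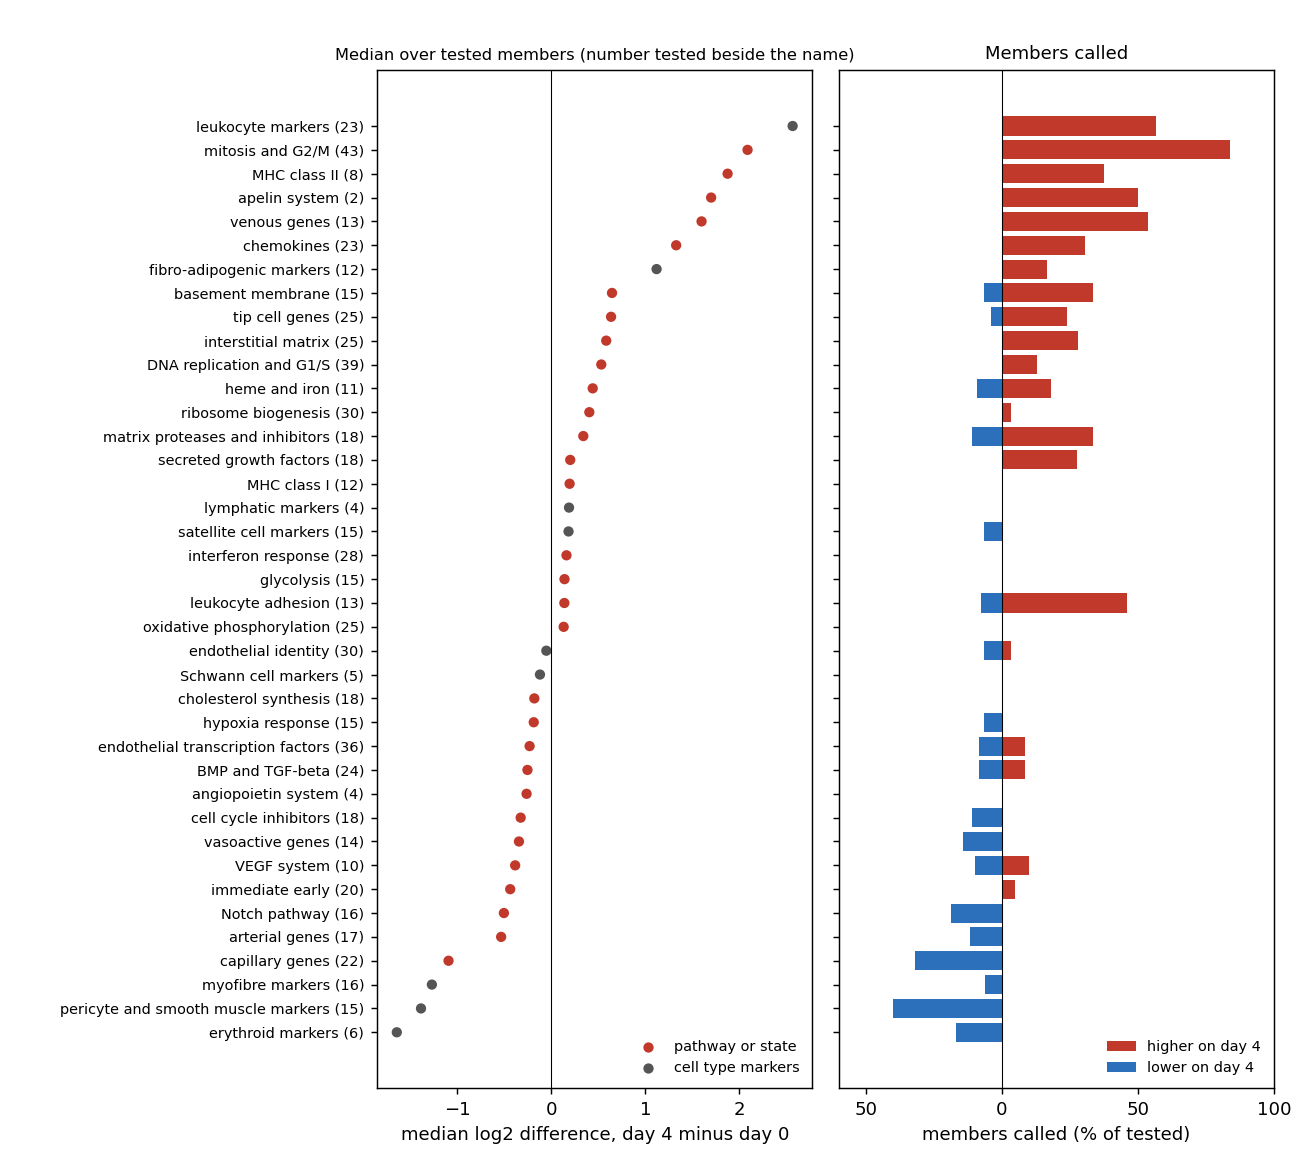
Left, the median log2 difference (day 4 minus day 0) of 39 gene lists, with the number of genes tested beside each name; red points are pathways or states and grey points are cell type markers. Right, the share of tested members called higher (red) or lower (blue) on day 4. Mitosis genes have the largest share called higher and pericyte and smooth muscle markers the largest share called lower. The lists were chosen with earlier results of these data known.

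Chemokine genes that were called all rose. Of 23 chemokines tested, 7 rose and 0 fell, with a median of 1.33. Cxcl2, which attracts neutrophils, measured 9.06, 8.09 and 7.95 on day 4 and 3.72, 2.91 and 3.03 on day 0 (5.15, SE 0.52, adjusted p = 2.97e-06). Ccl2, which attracts monocytes, measured 9.70, 8.85 and 8.53 on day 4 and 3.74, 5.04 and 4.29 on day 0 (4.67, SE 0.41, adjusted p = 5.7e-07). Cxcl10, which attracts T cells, measured 8.09, 8.57 and 8.63 on day 4 and 4.25, 4.86 and 5.62 on day 0 (3.52, SE 0.34, adjusted p = 1.79e-06). The highest day 4 array for Cxcl2 and Ccl2 was replicate 1, that with the highest leukocyte markers, while for Cxcl10 it was replicate 3. The part of leukocyte RNA in these rises was not tested. Ccl3 rose (3.58, SE 0.45, adjusted p = 3.34e-05), and Ccl8, with 8.23, 5.05 and 5.40 on day 4 against 3.46, 3.70 and 3.77 on day 0, rose by a difference that replicate 1 raised (2.58, SE 0.67, adjusted p = 0.0212).

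The promoter of Cxcl2 is shown because inflammatory chemokine genes are known targets of NF-kB. The NF-kB core GGGNNTTTCC was chosen after the values were seen and was searched on both strands in the same RefSeq windows. It was in 3 of 15 chemokine genes with a window (20%) and in 0 of 10 venous genes, against 1.89% of all genes. Cxcl2 (chr5:90903649-90903948, plus strand, GRCm38.p6) holds it at 2 places, in capitals, the first at position -97.
Cxcl2: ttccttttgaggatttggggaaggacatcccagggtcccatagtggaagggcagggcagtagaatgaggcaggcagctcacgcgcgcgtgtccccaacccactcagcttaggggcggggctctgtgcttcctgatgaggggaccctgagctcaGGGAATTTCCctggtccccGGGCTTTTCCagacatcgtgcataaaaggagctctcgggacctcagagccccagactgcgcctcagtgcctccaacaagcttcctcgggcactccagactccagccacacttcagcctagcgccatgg

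Of 18 secreted growth factors and cytokines tested, 5 rose and 0 fell, with a median of 0.20. Il6, a cytokine made by many cells of injured muscle, measured 7.65, 8.23 and 8.48 on day 4 and 3.90, 2.59 and 3.66 on day 0 (4.73, SE 0.51, adjusted p = 6.6e-06). Igf1, a growth factor for myoblasts and muscle fibres, measured 7.52, 8.10 and 8.52 on day 4 and 5.53, 5.78 and 5.80 on day 0, 5.07-fold higher (2.34, SE 0.28, adjusted p = 1.81e-05). In both genes replicate 1 was the lowest of the day 4 arrays and lay above each day 0 array. The matrix protein Postn (3.20), the peptide Apln (2.18) and Igfbp4, which binds insulin-like growth factors (1.72), were the others that rose. Without day 0 replicate 3, and without both arrays that stood apart, 1 gene of the list fell.

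Sprouting genes did not move as 1 group. Of 25 tip cell genes tested, 6 rose and 1 fell, with a median of 0.64, and 3 rose without both arrays that stood apart. The falls numbered 2 without day 4 replicate 1, 0 without day 4 replicate 2, day 0 replicate 1 or day 0 replicate 2, and 3 with array weights. Pgf, a ligand of Flt1, measured 7.46, 6.85 and 7.56 on day 4 and 4.38, 4.20 and 3.63 on day 0 (3.22, SE 0.39, adjusted p = 2.15e-05). Apln, the apelin peptide that tip cells release, measured 8.60, 7.80 and 7.65 on day 4 and 6.48, 6.26 and 4.77 on day 0, 4.53-fold higher (2.18, SE 0.44, adjusted p = 0.0037). The day 4 arrays of Apln all lay above its day 0 arrays, and without both arrays that stood apart the difference was 1.36 with an adjusted p of 0.129. The apelin receptor Aplnr was at 1.22 (SE 0.49, adjusted p = 0.159), and was called in fits of the 12 endothelial arrays alone (adjusted p = 0.0198).

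Other textbook tip cell genes were not called, among them Esm1 (0.40, SE 0.36, adjusted p = 0.636) and Angpt2, the ligand that loosens vessels (0.38, SE 0.58, adjusted p = 0.834). Vegfa, the main VEGF ligand, was at 0.04 (SE 0.33, adjusted p = 0.976). Of 10 genes of the VEGF system, Pgf rose and Flt1 fell, but Flt1 was called lower neither without day 4 replicates 1 or 3 nor without any of the 3 day 0 replicates, where the list had 0 falls, as it had without both arrays that stood apart. Of 4 genes of the angiopoietin system none was called by limma, and 0 had an unadjusted p under 0.05.

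Notch genes were lower or not called. Of 16 tested, 3 fell and 0 rose, with a median of -0.50. Dll4, the ligand that restrains sprouting, measured 7.66, 6.94 and 7.58 on day 4 and 9.24, 9.20 and 8.93 on day 0, 3.32-fold lower (-1.73, SE 0.43, adjusted p = 0.0169). Heyl, a Notch target also expressed by cells of the vessel wall around the endothelium, measured 4.70, 5.60 and 6.24 on day 4 and 8.27, 8.35 and 7.26 on day 0 (-2.44, SE 0.36, adjusted p = 0.000188). The order of the arrays in Heyl was that of the pericyte and smooth muscle markers within day 4 (mean levels 5.40, 5.92 and 6.42), and its lowest day 0 array was also theirs (7.96, 7.43 and 7.05). Their part in the fall of Heyl was not tested.

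Jag2, another Notch ligand, fell by 1.27 (SE 0.36, adjusted p = 0.0351), and the receptor Notch1 was at -0.27 (SE 0.24, adjusted p = 0.62). The adjusted p of Dll4 was 0.0852 without day 4 replicate 2, 0.0618 without day 0 replicate 1 and 0.0577 without day 0 replicate 2, and in each of these 1 Notch gene fell. Of 17 arterial genes tested, Dll4 and Jag2 fell and 0 rose, with a median of -0.53. No arterial gene was called lower without day 4 replicate 2, day 0 replicate 1 or day 0 replicate 2, and 1 was without day 4 replicate 3 and without both arrays that stood apart.

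BMP ligands moved in opposite directions. Bmp6 fell 8.71-fold, with 5.68, 5.79 and 5.42 on day 4 against 8.59, 8.79 and 8.88 on day 0 (-3.12, SE 0.36, adjusted p = 1.06e-05). Bmp2 measured 6.53, 7.28 and 6.75 on day 4 and 3.98, 4.49 and 3.96 on day 0 (2.71, SE 0.39, adjusted p = 0.000152). Both ligands were far apart between the groups on every array. The TGF-beta receptor Tgfbr2 rose (1.24, SE 0.26, adjusted p = 0.00444) and Smad7, an inhibitor of the pathway, fell by 1.00 (SE 0.29, adjusted p = 0.0401). In all, 2 of 24 BMP and TGF-beta genes rose and 2 fell, with a median of -0.25, and 1 fell without day 4 replicates 1 or 2 or day 0 replicates 1 or 2. Without both arrays that stood apart, 1 rose and 1 fell.

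Of 36 endothelial transcription factors tested, 3 rose and 3 fell, with a median of -0.23. Snai1, known from loss of cell junctions (2.52, SE 0.48, adjusted p = 0.00218), the homeobox factor Meox1 (2.08, SE 0.35, adjusted p = 0.000602) and the oxygen-regulated Hif1a (1.43, SE 0.22, adjusted p = 0.000227) rose. Gata2, Tcf15 and Epas1, the HIF family member typical of endothelium and chosen for mention after its values were seen (-1.11, adjusted p = 0.0329), fell. The shear stress factors Klf2 (-0.82, SE 0.28, adjusted p = 0.0891) and Klf4 (-0.84, SE 0.31, adjusted p = 0.125) were not called, though Klf4 was without day 4 replicate 3 (-1.13, adjusted p = 0.0486). Nos3, the endothelial nitric oxide synthase, was at -0.79 (SE 0.39, adjusted p = 0.274).

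Matrix genes that were called mostly rose, in the basement membrane and in the interstitium. Of 15 basement membrane genes, 5 rose and 1 fell, with a median of 0.65. Col15a1, a collagen of the outer basement membrane, measured 8.69, 9.17 and 9.10 on day 4 and 6.32, 5.93 and 5.83 on day 0, 7.79-fold higher (2.96, SE 0.41, adjusted p = 9.53e-05). Col18a1, the source of endostatin (2.59, SE 0.38, adjusted p = 0.000187), the linker protein Nid2 (2.01, SE 0.32, adjusted p = 0.000363), the laminin chain Lamb1 (1.71, SE 0.34, adjusted p = 0.00303) and the proteoglycan Bgn (1.32, SE 0.31, adjusted p = 0.0109) rose as well. Col4a1, a chain of the main basement membrane collagen, measured 9.96, 10.07 and 9.93 on day 4 and 9.07, 9.07 and 8.60 on day 0 and was not called (1.07, SE 0.39, adjusted p = 0.117). The groups of Col4a1 did not overlap, and fits of the 12 or the 6 endothelial arrays alone called it (adjusted p = 0.00973 and 0.0216). The laminin chain Lamb2 fell (-1.09, SE 0.28, adjusted p = 0.0223), which it did not without day 4 replicates 2 or 3 or day 0 replicates 1 or 2.

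Of 25 interstitial matrix genes tested, 7 rose and 0 fell, with a median of 0.58. Tgfbi measured 8.53, 8.66 and 8.22 on day 4 and 4.24, 4.19 and 4.32 on day 0 (4.22, SE 0.49, adjusted p = 1.3e-05). Postn, or periostin, measured 7.52, 8.04 and 7.81 on day 4 and 4.02, 5.35 and 4.39 on day 0 (3.20, SE 0.43, adjusted p = 5.8e-05). The groups were wide apart in both. Tenascin C (Tnc, 3.12, SE 0.38), versican (Vcan, 2.82, SE 0.46) and thrombospondin 1 (Thbs1, 2.59, SE 0.39) rose too. Col1a2 (1.61, adjusted p = 0.00692) and Col3a1 (1.33, adjusted p = 0.00244), which fibroblasts make in quantity, are also on the list of fibro-adipogenic markers given below.

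Enzymes that cut matrix and their inhibitors were called in both directions. Of 18 tested, 6 rose and 2 fell, with a median of 0.34. Mmp14, a membrane-bound collagenase of sprouting endothelium, measured 8.96, 9.21 and 9.30 on day 4 and 6.57, 6.16 and 5.07 on day 0, 9.36-fold higher (3.23, SE 0.31, adjusted p = 1.79e-06). Adamts4, which cuts proteoglycans (3.07, SE 0.48, adjusted p = 0.000287), the gelatinase Mmp2 (2.35, SE 0.39, adjusted p = 0.000538) and the inhibitor Timp1 (1.83, SE 0.31, adjusted p = 0.000612) rose. The inhibitor Timp4 fell, as given with the capillary genes. Without both arrays that stood apart, 1 gene of the list fell.

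Heme and nitric oxide genes gave few calls. Hmox1, the enzyme that breaks down heme, rose 3.25-fold, with 9.16, 9.41 and 9.51 on day 4 against 7.94, 7.49 and 7.55 on day 0 (1.70, SE 0.23, adjusted p = 6.83e-05). Of 11 heme and iron genes 2 rose and 1 fell, with a median of 0.44, and 1 rose without any 1 of the 6 arrays or without both that stood apart. Of 14 vasoactive genes 0 rose and 2 fell, with a median of -0.34: Gucy1a1 (-2.62, SE 0.58, adjusted p = 0.00685) and Gucy1b1 (-2.35, SE 0.55, adjusted p = 0.0106), the subunits of the nitric oxide receptor, which is typical of smooth muscle and pericytes. The falls numbered 1 without day 4 replicate 1 and 1 without day 0 replicate 1, and 1 gene of the list rose without day 4 replicate 3. Gucy1a1 measured 4.24, 4.87 and 6.48 on day 4 and 8.39, 8.14 and 6.90 on day 0, in the same order as the pericyte and smooth muscle markers, whose part was not tested.

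Stress and hypoxia lists held 1 call each. Of 20 immediate early genes, Nr4a1 alone was called (1.15, SE 0.27, adjusted p = 0.0107), with a list median of -0.44, and of 15 hypoxia genes Egln1, an oxygen-sensing hydroxylase, alone was called (-1.19, SE 0.25, adjusted p = 0.00487), with a list median of -0.19. The immediate early list had 1 fall without day 4 replicate 3, and the hypoxia list 1 rise without day 0 replicate 2. Without both arrays that stood apart, 0 immediate early genes rose.

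The interferon response turned on 1 array. Of 28 interferon response genes tested none was called by limma and 1 had an unadjusted p under 0.05, with a median of 0.16, and the mean level over the list was 7.69, 8.11 and 7.83 on day 4 against 7.06, 7.11 and 8.79 on day 0. Irf7, a transcription factor that amplifies interferon production, measured 9.20, 8.92 and 8.40 on day 4 and 7.75, 7.00 and 9.93 on day 0 (0.61, SE 0.52, adjusted p = 0.62). Day 0 replicate 3 was the highest of the 6 arrays in both. Without it 3 interferon genes rose, and Irf7 was called (1.46, adjusted p = 0.0477). Without both arrays that stood apart, 4 rose. Of 12 MHC class I genes none was called and 1 had an unadjusted p under 0.05, with a median of 0.19, and without both arrays that stood apart 2 rose. Of 8 MHC class II genes 3 rose and 0 fell, with a median of 1.88, and 1 rose without day 4 replicate 1, day 0 replicate 1, day 0 replicate 2 or both arrays that stood apart. H2-Aa, a class II chain, measured 9.17, 7.98 and 6.98 on day 4 and 3.10, 4.30 and 5.44 on day 0 (3.76, SE 0.94, adjusted p = 0.0169), in the order of the leukocyte markers within day 4.

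Imprinted growth genes were examined one by one. Mest rose 9.68-fold, with 10.46, 9.94 and 9.86 on day 4 against 6.99, 7.03 and 6.42 on day 0 (3.27, SE 0.42, adjusted p = 3.53e-05). The noncoding RNA H19 rose 2.61-fold, with 6.79, 6.70 and 6.93 on day 4 against 5.28, 5.42 and 5.56 on day 0 (1.39, SE 0.22, adjusted p = 0.000418). Igf2, the growth factor gene next to H19, measured 6.23, 5.56 and 5.79 on day 4 and 7.38, 6.79 and 5.99 on day 0 (-0.86, SE 0.30, adjusted p = 0.102). Igf2 was not called with all arrays and was without day 0 replicate 3 (-1.22, adjusted p = 0.0178). Dlk1 was at 0.03 (SE 0.24, adjusted p = 0.976) and below the array medians on all 6 arrays.

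Markers of other cells were read on each array, since any cells that passed the gate contribute RNA. In bulk RNA, fewer cells of a type and less RNA per cell cannot be told apart. Of 23 leukocyte markers tested, 13 rose and 0 fell, with a median of 2.57, and 7 rose without both arrays that stood apart. The mean level over the list was 7.29, 6.20 and 5.51 on day 4 and 3.98, 3.88 and 4.06 on day 0. Ptprc, which encodes CD45, the marker the gate excluded, measured 6.88, 5.97 and 4.04 on day 4 and 2.84, 2.78 and 2.89 on day 0 (2.79, SE 0.79, adjusted p = 0.0363). It was below the array medians on day 0 and on day 4 replicate 3. The adjusted p of Ptprc was 0.195 without day 4 replicate 1, 0.116 without day 4 replicate 2, and 0.0939, 0.0948 and 0.0833 without day 0 replicates 1, 2 and 3. It was 0.0585 with the second number in the array descriptions as a block. The neutrophil genes S100a8 and S100a9 were at 2.58 ± 1.05 and 3.83 ± 1.03 on day 4 and 2.09 ± 0.19 and 3.29 ± 0.09 on day 0 (mean ± SD, n = 3 each), at or below the array medians on average.

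Mural cells, the pericytes and smooth muscle cells around vessels, had the reverse pattern. Of 15 markers 0 rose and 6 fell, with a median of -1.39. Rgs5, a pericyte regulator of G proteins, measured 7.35, 8.16 and 9.15 on day 4 and 11.65, 11.35 and 11.38 on day 0, 9.44-fold lower (-3.24, SE 0.43, adjusted p = 6.4e-05). Pdgfrb, the receptor that ties pericytes to endothelium, measured 4.19, 5.89 and 6.45 on day 4 and 8.84, 8.32 and 7.76 on day 0 (-2.80, SE 0.65, adjusted p = 0.00998). Rgs5 and Pdgfrb were lowest on day 4 replicate 1 and did not overlap between the groups. Vtn (-3.52), the potassium channel parts Kcnj8 (-3.04) and Abcc9 (-2.97) and the smooth muscle myosin Myh11 (-1.93) fell as well, while smooth muscle actin Acta2 (0.29, adjusted p = 0.848) was not called.

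Of 12 fibro-adipogenic markers 2 rose and 0 fell, with a median of 1.12 and mean levels of 5.04, 4.70 and 4.94 on day 4 and 4.47, 4.24 and 4.29 on day 0, and 1 fell without day 0 replicate 3. Of 16 myofibre markers 0 rose and 1 fell, with a median of -1.27 and mean levels of 5.60, 5.18 and 5.20 on day 4 and 6.87, 6.06 and 6.43 on day 0. The count of myofibre falls was 2 without day 4 replicate 1 and without both arrays that stood apart, and 6 in the fit of the 12 endothelial arrays alone. Of 15 satellite cell markers 0 rose and 1 fell, Itga7, the integrin of the satellite cell gate (-1.02), with a median of 0.18. Itga7 lost its call without any 1 of the day 4 replicates, without day 0 replicates 1 or 2, and without both arrays that stood apart. Pax7, their defining factor, measured 4.60, 5.45 and 5.65 on day 4 and 4.87, 4.89 and 4.95 on day 0. The erythroid list had 1 fall among 6 genes, the platelet gene Ppbp (-2.67, adjusted p = 0.00377), and a median of -1.64, with 2 falls without day 4 replicate 1. None of 4 lymphatic (median 0.19) and 5 Schwann cell markers (median -0.12) was called, and 1 and 0 of them had an unadjusted p under 0.05. The part of these cells in the calls above was not tested.

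**Figure D3:**
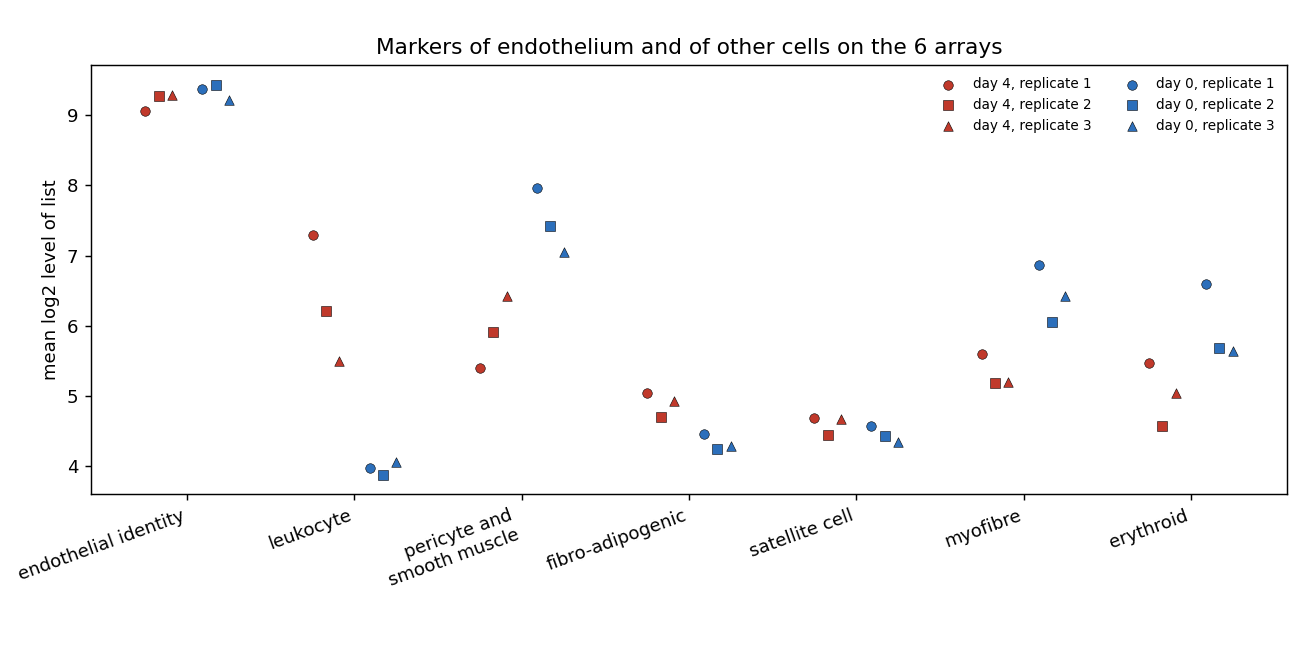
Mean log2 level over endothelial identity genes and over markers of 6 other cell types on each array, day 4 (red) left of day 0 (blue), with marker shapes for replicates 1 to 3. Endothelial levels overlap, leukocyte levels on day 4 (5.51 to 7.29) lie above those on day 0 (3.88 to 4.06), and pericyte and smooth muscle levels on day 4 (5.40 to 6.42) lie below those on day 0 (7.05 to 7.96).

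Day 4 was set against the neighbouring days to place it in time. Against day 2, 37 genes were higher on day 4 (0.263% of those tested) and 15 lower (0.107%). The 5 largest rises were Lbp, which binds bacterial lipopolysaccharide (3.36), the cardiac actin Actc1 (3.00), Chp2 (2.99), Mmp2 (2.97) and the adhesion molecule Cadm3 (2.82). Chp2 and Lbp were not called against day 0: Lbp measured 6.91 ± 0.73 at day 0, 4.87 ± 0.71 at day 2 and 8.23 ± 0.58 at day 4 (n = 3 each). S100a8 was lower at day 4 than at day 2 (-5.45, SE 0.57), with 2.09 ± 0.19 at day 0, 8.03 ± 1.44 at day 2 and 2.58 ± 1.05 at day 4, and S100a9 was lower likewise (-4.15, SE 0.52). Apln (-2.12, adjusted p = 0.0312), the AP-1 factor Fosl1 (-2.07, adjusted p = 0.049) and the polyamine enzyme Srm (-1.83, adjusted p = 0.0109) were the other large falls.

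Against day 8, 13 genes were higher on day 4 (0.0924%) and 4 lower (0.0284%). Those highest were Lilrb4a (3.64, adjusted p = 0.000941), the Clca family gene Clca3a1 (3.56, adjusted p = 0.000334), Fjx1 (2.95, adjusted p = 0.0141), Bmp2 (2.83, adjusted p = 0.00133) and the nucleotide receptor P2ry6 (2.60, adjusted p = 0.0331). Clca3a1 measured 3.67 ± 0.48 at day 0, 5.16 ± 0.81 at day 2, 7.38 ± 0.21 at day 4 and 3.82 ± 0.18 at day 8, with the highest level at day 4 and day 8 within the spread of day 0. Fjx1 measured 6.34, 8.07 and 9.13 on the day 4 arrays, a wide spread, against 4.90 ± 0.40 on day 8. The 4 genes lower on day 4 than on day 8 were Btnl9 (-2.96), Papln (-1.70), Vwa3a (-1.41) and the laminin chain Lama3 (-1.20). Btnl9 measured 7.10 ± 0.75 at day 0, 4.35 ± 0.32 at day 2, 3.68 ± 0.28 at day 4 and 6.64 ± 0.74 at day 8.

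Groups of genes differed in their course. Venous genes had their highest mean levels at day 4, with 6.49, 6.73 and 6.69 at day 0, 6.69, 7.10 and 7.00 at day 2, 7.97, 8.35 and 8.32 at day 4 and 7.05, 7.32 and 7.40 at day 8. All day 4 arrays lay above those of the other days, and Ackr1 was called higher on day 4 than on day 2 (2.47, adjusted p = 0.0483). Ackr1 measured 6.12 ± 0.62 at day 0, 6.39 ± 0.83 at day 2, 8.86 ± 0.26 at day 4 and 7.20 ± 0.69 at day 8. The sprouting ligands Apln and Pgf had their highest means on day 2. Apln measured 5.84 ± 0.93 at day 0, 10.13 ± 0.40 at day 2, 8.02 ± 0.51 at day 4 and 7.58 ± 0.17 at day 8, and Pgf 4.07 ± 0.39, 9.03 ± 0.18, 7.29 ± 0.39 and 4.87 ± 0.20 on the same days. Pgf on day 4 was called higher than on day 8 (2.42, adjusted p = 0.00903) and was not called against day 2 (-1.74, adjusted p = 0.053).

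Mean levels of the capillary genes were 9.24, 9.44 and 9.43 at day 0, 7.96, 8.13 and 8.59 at day 2, 8.15, 8.27 and 8.25 at day 4 and 8.88, 8.68 and 8.68 at day 8. No array after injury reached the lowest of day 0. No mitosis gene was called between day 4 and day 2 or day 8, although the mean levels of day 4 were the highest of the 4 days in 2 of 3 arrays. Replication genes had a day 2 level of 5.83, 6.17 and 6.05, and no member was called between day 4 and either day.

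**Figure D4:**
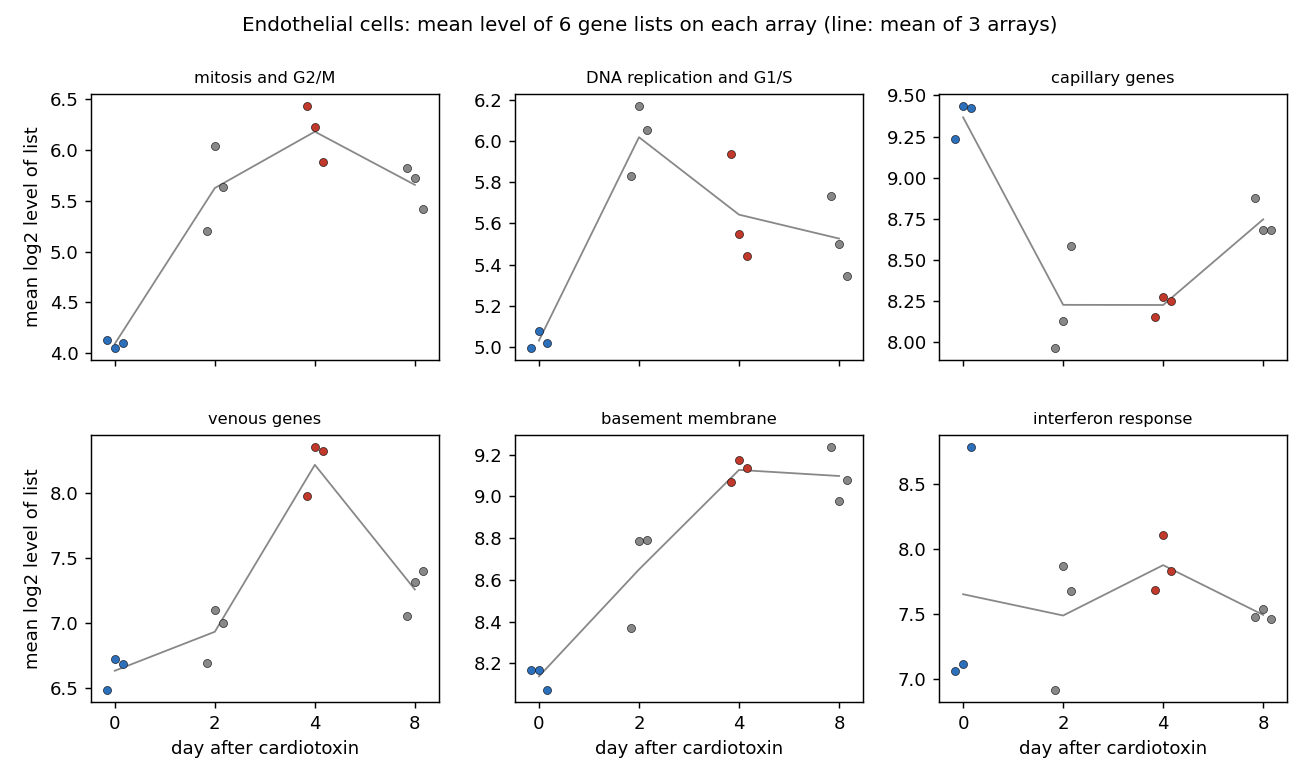
Mean log2 level of 6 gene lists on each endothelial array by day after cardiotoxin (0, 2, 4, 8), with day 0 in blue, day 4 in red, other days in grey and a line through the means of 3 arrays. Venous genes are highest on day 4, replication genes on day 2, capillary genes lie lower on all days after injury, and 1 day 0 array stands above all others in the interferon panel.

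The day 4 response of endothelial cells was set against that of satellite cells of the same days, with the difference of the differences as the test. The endothelial response was higher for 315 genes (2.24%) and lower for 281 (2%). Arrays of both cell types that share a second number in their descriptions, taken up below, were treated as independent in this test. Of 43 mitosis genes 0 differed in either direction, and the medians of the responses were 2.09 in endothelial cells and 2.09 in satellite cells. Of the leukocyte markers 0 differed, and the medians of the responses were 2.57 in endothelial cells and 3.23 in satellite cells. Of the 30 endothelial identity genes 0 had a higher response in endothelial cells and 5 a lower one. The medians of that list were -0.05 in endothelial cells and 0.81 in satellite cells, and Cdh5 was at 1.71 in satellite cells. Of the 15 pericyte and smooth muscle markers 2 had a higher response in endothelial cells and 0 a lower one. The medians of that list were -1.39 in endothelial cells and -2.79 in satellite cells, where 12 markers fell and 0 rose. The part of other cells in the satellite sort in these responses was not tested.

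Il6 rose more in endothelial cells (4.73 in endothelial cells and 1.16 in satellite cells, difference 3.57, adjusted p = 0.00485), as did Tgfbi (difference 3.38, adjusted p = 0.00545), Sele (3.25, adjusted p = 0.00473), Col15a1 (3.19, adjusted p = 0.0022), Myc (3.00, adjusted p = 0.000239) and Mmp14 (2.98, adjusted p = 0.000316). Bmp2 moved in opposite directions (2.71 in endothelial cells and -1.57 in satellite cells, difference 4.28, adjusted p = 7.95e-05). Of 15 basement membrane genes 5 had a higher response in endothelial cells and 0 a lower one, and of 22 capillary genes 1 and 6. The 5 largest positive differences were Ccl19 (7.60), Cnn1 (5.14), Chrdl2 (4.90), Fjx1 (4.77) and Snora69 (4.66). Ccl19, Cnn1, Chrdl2 and Snora69 were not called between day 4 and day 0 in endothelial cells and stood at -6.05, -4.82, -4.83 and -3.01 in satellite cells.

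On the other side, Cdkn1c fell in endothelial cells (-2.04) and was at 2.42 in satellite cells (difference -4.46, SE 0.37, adjusted p = 2.33e-07). AU020206 had the same form (-1.39 and 3.34, difference -4.73, SE 0.36, adjusted p = 2.33e-07). Mymk, whose product myomaker fuses myoblasts, was at 0.65 in endothelial cells and 5.10 in satellite cells (difference -4.45), and Ociad2 at -0.06 and 4.11 (difference -4.17). The small nucleolar RNA Snord35b fell in endothelial cells and was at -0.94 in satellite cells (difference -4.09, adjusted p = 0.0188). Gata2 (-3.22, adjusted p = 7.95e-05), Btnl9 (-3.23, adjusted p = 0.000553) and Timp4 (-3.21, adjusted p = 0.0176) had lower responses in endothelial cells as well.

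**Figure D5:**
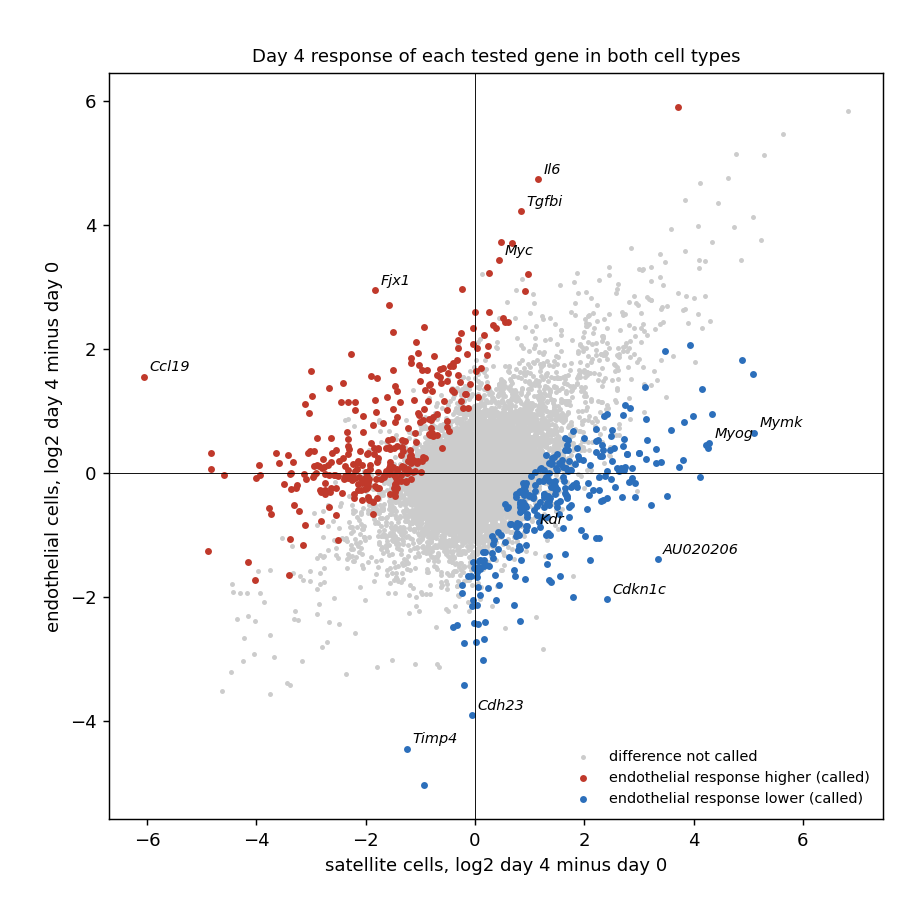
Log2 difference between day 4 and day 0 of each of the 14064 tested genes in endothelial cells (vertical axis) and satellite cells (horizontal axis), with genes whose responses differ in red (315 higher in endothelial cells) and blue (281 lower). Il6, Tgfbi and Myc lie high on the endothelial axis with small satellite values, and Cdkn1c and AU020206 lie below 0 on the endothelial axis and above 0 on the satellite axis.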

How the data were processed

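RNA of sorted cells was hybridised to Affymetrix Mouse Gene 2.0 ST arrays. The deposited table holds log2 values that the authors made with RMA, per the submitters' processing notes; RMA corrects background, sets the distributions of the arrays equal and summarises probes, so differences shared by all genes are not visible in it. Samples were grouped by title. Probe sets were named through the platform annotation (23281 of 24479 had a symbol), those above the array median on at least 3 arrays were kept, and the brighter one stood for each gene, which left 14064 genes. The fit used limma 3.58.1 in R 4.3.3 with 1 mean for each of the 8 groups and 16 residual degrees of freedom, and was tested on simulated data. Array values correlated at 0.933 to 0.951 within day 4, at 0.933 to 0.957 within day 0 and at 0.858 to 0.907 between the days. The number of arrays limits the precision, and 3 against 3 cannot reach an exact permutation p below 0.1.

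A fold is given only where the mean of the lower group was at least 5.25, which is 1 above the mean of the array medians. Values of different genes are not compared, since probe sets differ in brightness. Members and lists were chosen with earlier results of these data known. The genes named were the 12 largest rises and falls with arrays apart, a set of key genes, up to 5 called members of each list, members of lists of 16 or fewer, and the 5 largest differences in each direction of the other comparisons. Alternatives covered filters, scaling, which arrays entered the fit, array weights, blocks and leaving out arrays. Promoter sequences are from RefSeq, GRCm38.p6; the genome build of the array annotation is not given in the sources used here.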

Additional observations from a re-analysis of the deposited data

Results flagged for a closer look

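The genes below are some of the 596 whose day 4 response, as a log2 difference from day 0, differed between endothelial and satellite cells. The test was of the difference itself (limma, adjusted p under 0.05, difference of 1 or more in size). Only the largest rises and falls, the key genes and the largest differences between the cell types were considered for this list. Other genes that differed, among them Bmp2, Sele, Col15a1, Mmp14 and Gata2, are given above and not repeated. Higher responses in endothelial cells were seen for Ccl19 (7.60), Cnn1 (5.14), Chrdl2 (4.90), Fjx1 (4.77), Snora69 (4.66), Il6 (3.57), Tgfbi (3.38), Myc (3.00) and AA467197 (2.19). Lower responses in endothelial cells were seen for AU020206 (-4.73), Cdkn1c (-4.46), Mymk (-4.45), Ociad2 (-4.17), Snord35b (-4.09), Cdh23 (-3.84), Myog (-3.81), Btnl9 (-3.23), Timp4 (-3.21), Kdr (-2.0), Gpihbp1 (-1.88), Igf2 (-1.81), H19 (-1.73) and Cdh5 (-1.67). For Cdh5, Kdr and Gpihbp1, endothelial genes that were not called in endothelial cells, the satellite cell values were 1.71, 1.09 and 1.36. The mean level over the endothelial identity list on the satellite arrays was 5.96, 5.86 and 5.84 on day 0. It was 7.08, 6.47 and 6.43 on day 4. The part of endothelial RNA in the satellite sort in these differences was not tested. H19 and AA467197 rose in both cell types. Ccl19, Cnn1, Chrdl2 and Snora69 were not called in endothelial cells and had negative values in satellite cells, as given above.

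Probe sets without a gene symbol enter no comparison above. Of 624 tested, 18 were higher and 18 lower on endothelial day 4 than on day 0 by the same thresholds. These shares lie near those over the 14064 genes with a symbol, 3.11% higher and 2.22% lower.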

How the results depend on the processing

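No gene called with all arrays was called in the opposite direction under any of the 19 alternatives. All 19 use the same arrays or a part of them, which leaves little room for a reversed call. Of 1120 values for 59 of the named genes, 1089 kept their side of the threshold, 19 lost a call and 12 gained one. These 59 are the 12 largest rises, the 12 largest falls and the key genes. Other named list members, such as Flt1, Jam3, Lamb2 and Itga7, are not among them. Values of genes that were not called in either fit count as kept. Of 1482 counts over the lists, 144 moved by more than 1.5 times. With array weights, 574 genes rose and 456 fell, 154 differed between days 4 and 2 (52 without weights), 62 between days 4 and 8 (17 without), and 1047 differed in response between the cell types (596 without). Without any 1 of the 6 arrays, 330 to 386 genes rose and 223 to 304 fell. Without any 1 of the 3 day 4 arrays, 8 to 17 differed between days 4 and 8, with 8 without day 4 replicate 3. Without both day 4 replicate 1 and day 0 replicate 3, an alternative chosen after seeing the data, 260 rose and 184 fell. The cause of these shifts was not tested, beyond the smaller number of arrays.

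With the replicate number as a block (replicate block), 458 genes rose and 328 fell, and 38 differed between days 4 and 8. Deviations of day 4 and day 0 arrays of the same number correlated at 0.077, 0.007 and 0.004, and those of different numbers at -0.082 to 0.067. With 3 arrays per group these values cannot show whether arrays of the same number share an animal or a batch. The array descriptions hold a second number, whose meaning the labels do not give: day 4 replicate 2 shares it with day 0 replicate 1, and day 4 replicate 3 with day 0 replicate 2. Endothelial and satellite arrays of the same day and replicate number share it too, except at day 0 replicate 3. As a random block within day (correlation 0.0483) the second number gave 440 rises and 311 falls. With this random block 645 genes differed in response between the cell types (596 without). As a fixed block over all days, chosen after seeing the data, the second number gave 437 rises and 259 falls, 378 and 239 of them called without it, and 79 genes differed between days 4 and 2. With this fixed block 479 genes differed in response between the cell types. Signal near the array medians limits genes without a fold.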
